A study of Rattus norvegicus with 12 samples.

Results

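Regions of rat messenger RNA that carried an m6A peak in every immunoprecipitated library are described here, with their place in the enrichment order of each library and the change of their genes. Peaks of 6 lists, 3 from Barrett's esophagus (BE) tissue and 3 from normal control (NC) tissue, were joined into regions when sharing 1 bp or more. A region was a member if it held a peak from all 6 lists, whatever the size of the peaks. This held for 11152 of 29269 merged regions (38.1%), and the members held 67107 of the 113141 peaks (59.3%). Members were thus chosen by the presence of a peak in every list, so that presence is a description and supports nothing below.

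The BE rats had undergone esophagoduodenostomy, a surgical connection of esophagus and duodenum that lets bile and duodenal juice flow back, and the NC rats had no treatment. Bulk esophageal tissue of each group gave 3 input and 3 IP libraries. Input libraries measure RNA per gene, and IP libraries hold RNA pulled down with an m6A antibody. The labels used here name no strain, age, time after surgery or number of animals, so a p-value reflects only the spread among libraries, part of which may be technical.

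N6-methyladenosine, written m6A, is an internal methyl mark of messenger RNA. A complex around Mettl3 and Mettl14, with Wtap and other partners, writes it, Fto and Alkbh5 can remove it, and YTH domain proteins bind it and affect splicing, translation and decay of the transcript. In MeRIP-seq, the assay used here, RNA fragments are enriched with the antibody, and a peak is a stretch with more IP reads than its background. A peak's fold enrichment is therefore a relative measure and no count of methylated molecules.

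Input totals were 15543460 to 17471748 reads on genes in BE and 11213531 to 16863737 in NC, and IP depth is unknown. Squamous epithelium markers summed to 73773 to 81998 CPM in BE input and 47118 to 64039 in NC, where CPM is the TMM-scaled abundance. Striated muscle markers, 44 in the count table, summed to 6503 to 8944 CPM in BE against 145506 to 170925 in NC. Of 26 columnar and goblet epithelium markers, 4 (Muc2, Agr2, Vil1 and Spdef) had no read in any BE input library and 7, among them Krt20 and Muc5ac, none in any NC library. Of the list's 8 tested genes 4 rose and none fell (edgeR adjusted p under 0.05), while of all tested genes 21.8% rose and 21.8% fell. The whole list summed to 217 to 460 CPM in BE and 131 to 152 in NC. The top of that BE range came from replicate 1, where Pigr gave 140 CPM, Krt18 33.5 and Hnf4a 23.8. None of these genes exceeded 0.287 CPM in BE replicates 2 and 3. Epcam alone gave 171 and 129 CPM of the sums of 279 and 217 in those libraries, against 72.3 to 76.9 in NC. BE replicate 1 stood apart: 29 hepatocyte markers summed to 12429 CPM there and to 85.3 to 208 in the other 5 libraries. No hepatocyte marker gene held a member region. In bulk tissue, fewer cells of a type and less RNA per cell cannot be told apart.

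The members were the highly ranked part of each list. Their mean percentile rank (0 for the lowest fold enrichment of a list, 100 for the highest, averaged over the lists) had a median of 64.4. For regions found in 1, 2, 3, 4 and 5 lists the medians were 15.7, 20.3, 28.1, 30.6 and 35.9. Their median width was 496 bp, against 209 bp for regions in 5 lists and 158 bp for regions in a single list. Of the members, 99.1% held exactly 1 peak per list and 79.6% had the same start and end in all 6 lists. Among the 11896 regions in 2 to 5 lists, 82.3% had the same bounds in each list that held them.

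**Figure D1:**
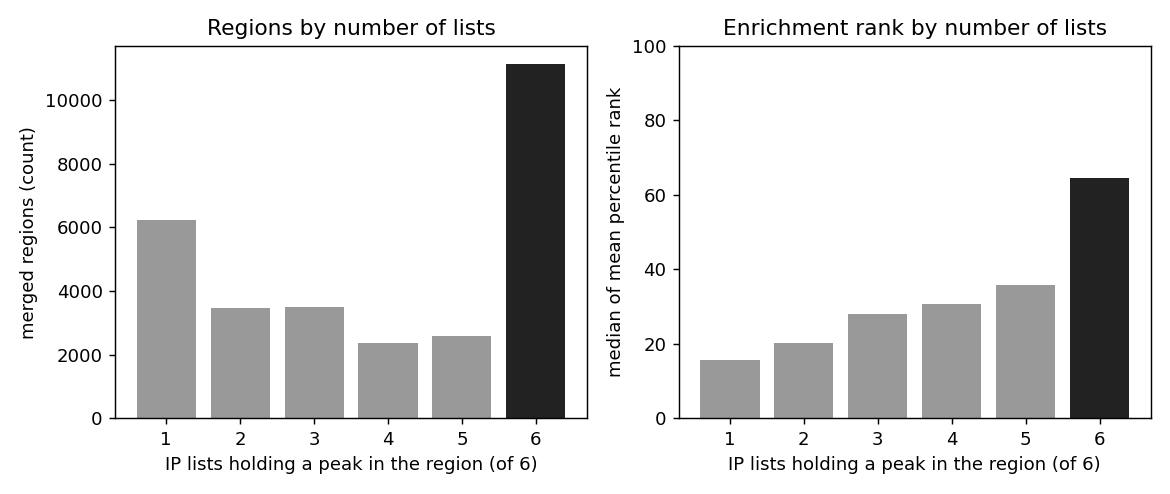
Left, number of merged regions by the number of IP lists that hold a peak there; right, median over those regions of the mean percentile rank of fold enrichment. The members (black bar, 11152 regions) are the most numerous class and have a median of 64.4, against 35.9 for regions in 5 lists.

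The edge of the rule lay mostly among lower-ranked regions, though it also left out regions near the top of their lists. At the edge inside, 414 members (3.71%) had a score under 60 in at least 1 list, close to the lowest score of about 50 that any list holds. Just outside stood 2586 regions with peaks in 5 lists, of which 1080 lacked a BE peak and 1506 an NC peak. NC replicate 1, whose list had 16644 peaks and was the shortest, was the missing list in 641 of them. The 2 regions named next were chosen for the highest mean rank among those lacking a BE or an NC peak, in genes with a proper symbol. A 46 bp region of Ddx24, a DEAD-box RNA helicase, ranked between 99.1 and 99.7 in 5 lists and had no peak in BE replicate 1. A 96 bp region of Tnnc2, fast skeletal troponin C, ranked between 99.9 and 100 in 5 lists and had none in NC replicate 1, although Tnnc2 stood at 1219 CPM in that input library. Such regions are left out by the rule, so the differences described below leave out the regions whose peak was missing in a library.

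Members were spread over 6555 of the 11217 genes with any peak. Most of these genes (3960) held 1 member, 1508 held 2 and 1087 held 3 or more. Of 13761 genes tested in the input, 45.4% held a member. With the tested genes cut into 5 groups of equal size by mean CPM, the share was 21.1% in the lowest and 43.9%, 52.8%, 54.9% and 54.4% in the next 4. Gene abundance and rank were nearly unrelated among the members (Spearman's rho -0.066 over 10717 regions, which share the 6 input and 6 IP libraries). Wider regions ranked higher, with a median mean percentile of 52.7 in the 2806 narrowest (12 to 179 bp) and 73.7 in the 2788 widest (1102 to 11558 bp).

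Ranks of members kept their order more closely within a group than between groups. Spearman's rho over the 11152 members was 0.800 to 0.840 between BE lists, 0.838 to 0.874 between NC lists and 0.665 to 0.772 between a BE and an NC list. BE replicate 1 had the 3 lowest values with NC, 0.665 to 0.704. The median SD of a region's rank was 7.59 percentile points within BE and 7.14 within NC (n = 3 lists each). A region moved over a median range of 27.1 points across the 6 lists, and 5233 members (46.9%) stayed in the upper part of every list, at or above a rank of 50.

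At the top stood 793 members with a rank of at least 90 in all 6 lists. The highest was a 129 bp region of Ahnak (chr1:232122559-232122687; no source used here names the build), a giant scaffold protein. Its lowest rank was 99.99, with the authors' fold enrichment at 800 to 1363 in BE and 1073 to 1749 in NC. Ahnak fell in the input from 13910 ± 634 to 6327 ± 69.3 CPM (mean ± SD, n = 3; log2 change -1.14 ± 0.11 SE, edgeR's quasi-likelihood test, adjusted p = 2.24e-05). The region was chosen for its rank in all lists, so that rank is no evidence of stability. Next came single regions of Snrnp70, a protein of the U1 splicing particle, Ppp1r9b, a scaffold of protein phosphatase 1, Arih2, a ubiquitin ligase, Eif3j, a subunit of a translation initiation factor, and Scand1, a SCAN domain protein. Their lowest ranks were 99.91 or above. Scand1 had only 5 to 22 reads per input library. Among the 10959 members matched to the count table, 78 to 110 per BE library and 70 to 112 per NC library lay in a gene with no input read there.

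Comparing BE with NC asked whether the shared regions kept their place in the enrichment order. Because a rank depends on the length of the list (19329 to 20531 peaks in BE, 16644 to 18864 in NC), 2 rankings are given. Ranked within the whole list, the median member stood 3.21 points higher in BE. Ranked among the 11152 members alone, so that every list has the same length, the median difference was 0.051 points. In the first ranking, all 3 BE values lay above all 3 NC values in 2170 members (19.5%) and below them in 857 (7.68%). In the second, they lay above in 1356 (12.2%) and below in 1412 (12.7%). In both rankings at once, 1356 (12.2%) were higher and 857 (7.68%) lower.

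With limma's moderated test over all members (adjusted p under 0.05), 246 regions (2.21%) were called higher and 128 (1.15%) lower in the whole-list ranking. Among members alone 145 (1.3%) were called higher and 206 (1.85%) lower, so the share of calls that were higher was 65.8% or 41.3% depending on the ranking. Both rankings shared 142 higher and 128 lower calls. These calls rest on all 6 lists: leaving out any 1 list cut them, to 13 higher and 43 lower without BE replicate 1 and to none in either direction without NC replicate 3. Without NC replicate 3, limma still gave 1520 higher and 495 lower regions at an unadjusted p under 0.05. Any 1 left-out library ended the calls named below in Serpina3n, Fndc1, Eif3a, Kmt2c, Kmt2a, Pkp4, Neb, Jph1 and Smtn. The same held for the first region of Rdx and the second of Dst. The values in each library are therefore given first below, and the adjusted p after them. Where a gene held several members, the naming rule took the region with the largest absolute rank difference among those it chose from. Other members of that gene may differ from it.

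The largest rise of rank within the whole list was in a 173 bp region of Nat10 (chr3:100304390-100304562), the enzyme that acetylates cytidines in RNA. Its ranks were 94.7, 89.8 and 96.7 in BE replicates 1 to 3 and 10.4, 30.7 and 13.9 in NC replicates 1 to 3, a difference of 75.4 ± 8.54 points (SE; limma adjusted p = 0.0116). The groups were far apart, and the authors' fold enrichment was 29.9 to 45.6 in BE and 6.05 to 6.64 in NC. Nat10 rose in the input by a log2 change of 0.68 ± 0.18 (edgeR adjusted p = 0.0118), a call that 3 of the 6 left-out libraries ended at adjusted p of 0.0540 to 0.0635.

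Among members alone the rise of Nat10 was 81.3 points and that of Aldh3b2, an aldehyde dehydrogenase, 82.2 points. The 38 bp region of Aldh3b2 (chr1:226064194-226064231) ranked 96.8, 95.8 and 98.5 in BE and 9.81, 43.1 and 21.3 in NC. For Carhsp1, a cold-shock domain protein that binds RNA, the values were 77.4, 70.0 and 73.4 in BE against 6.19, 3.91 and 0.465 in NC. Tubb6, a beta-tubulin, gave 97.9, 96.8 and 98 against 35.7, 29.6 and 26.3. In each of these regions every BE list stood far above the highest NC list, and the limma adjusted p was 0.0116 to 0.0178. Tubb6 also rose in the input (log2 change 2.06 ± 0.20, edgeR adjusted p = 3.33e-05), and so did Carhsp1 (0.78 ± 0.16, 0.00261), whereas Aldh3b2 stood at 0.67 ± 0.25 and an adjusted p of 0.0504.

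Cenpe, the kinesin that moves chromosomes at the kinetochore, held 3 members, all with BE above NC in both rankings. Its first region (chr2:258942695-258942853) ranked 75.3, 70.5 and 74.7 in BE and 2.91, 16.8 and 1.07 in NC. The groups did not come near each other (66.6 ± 8.08 points, limma adjusted p = 0.0132), and Cenpe rose in the input by 1.82 ± 0.18 on the log2 scale. Fabp5, the epidermal fatty acid binding protein, ranked 68.9, 70.3 and 74.1 against 8.65, 0.583 and 14.5. Its single member (chr2:113735166-113735428) lay in a gene that rose from 618 ± 60 to 4121 ± 175 CPM (edgeR adjusted p = 1.29e-07).

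The remaining members among the 8 largest rises were in Serpina3n, a serine protease inhibitor of the acute phase, and Chaf1a, the large subunit of the CAF-1 histone chaperone. In Serpina3n the BE ranks were 94.7, 68.5 and 93.3, and its input CPM showed the same uneven picture at 487, 51.7 and 347 in BE against 5.23 to 12 in NC. Leaving out any 1 library ended the rank call of Serpina3n, at limma adjusted p of 0.0571 to 0.0803. Its input change had an edgeR adjusted p of 0.0527 without BE replicate 1. The input call also ended without BE replicate 3 or any 1 NC replicate, at adjusted p of 0.0632 to 0.088. Chaf1a ranked 87.4 to 93.3 in BE and 16.5 to 46.6 in NC at the last of its 4 members, and its gene rose by 1.29 ± 0.23 (edgeR adjusted p = 0.00125).

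**Figure D2:**
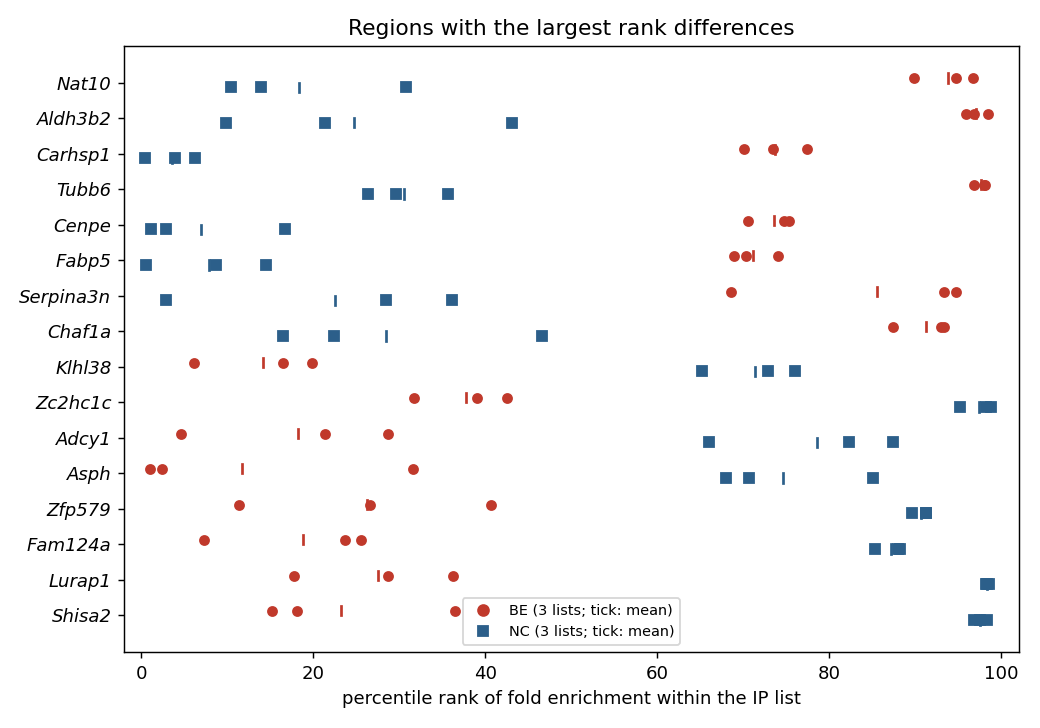
Percentile rank of fold enrichment within each IP list (x axis, 0 to 100) for the 8 members with the largest rise and the 8 with the largest fall, 1 row per gene; circles are the 3 BE lists, squares the 3 NC lists and ticks their means. The groups are separate in every row, which the choice of these rows fixes, and the NC squares of Lurap1 lie closest together, at 98.2 to 98.5.

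On the other side, a 334 bp region of Shisa2 (chr15:43763011-43763344), an antagonist of Wnt and FGF signalling, ranked 97.5, 98.3 and 96.8 in NC. In BE it stood at 15.2, 18.1 and 36.5, a difference of -74.3 ± 8.47 points (limma adjusted p = 0.0116). The gene was almost absent from BE input, with 1, 0 and 18 reads against 73, 96 and 73 in NC, yet each BE list held a peak there. Shisa2 fell in the input (log2 change -4.13 ± 1.10, edgeR adjusted p = 0.0155), at adjusted p of 0.0526 and 0.0529 without NC replicate 2 or 1.

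The same picture of few BE input reads held for 4 more of the 8 largest falls. Lurap1, a leucine-rich adaptor protein, ranked 17.7, 36.2 and 28.7 in BE and 98.2 to 98.5 in NC, with 6 to 18 input reads in BE and 127 to 230 in NC. Fam124a had 1 to 18 reads in BE, Zfp579, a zinc finger protein, 1 to 18, and Zc2hc1c 0 to 18. Their regions ranked 7.25 to 42.5 in BE and 85.3 to 98.8 in NC (limma adjusted p = 0.0128 to 0.0204), and the 3 genes fell by 3.48 to 4.59 on the log2 scale.

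The other 3 falls lay in genes with more input reads. Asph, whose products include an aspartate hydroxylase and the sarcoplasmic reticulum protein junctin, ranked 2.38, 0.999 and 31.6 in BE and 68, 85.1 and 70.7 in NC. That region was the third of 4 members of Asph, which fell by 1.41 on the log2 scale (SE 0.14). Adcy1, an adenylyl cyclase, ranked 4.61 to 28.7 in BE and 66 to 87.4 in NC, and Klhl38, a kelch-like protein, 6.12 to 19.9 against 65.2 to 76. Both genes fell in the input, with log2 changes of -2.43 ± 0.27 and -3.86 ± 0.33.

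The change of the gene in the input was set beside the rank of its region. Over all 13761 tested genes 2999 (21.8%) rose and 2996 (21.8%) fell, and at least 2-fold 1420 (10.3%) rose and 1964 (14.3%) fell (edgeR adjusted p under 0.05). Of the member genes, 1310 (21.0%) rose and 1439 (23.0%) fell, at least 2-fold 522 (8.35%) and 825 (13.2%), and their median log2 change was -0.0060. Of the 7509 tested genes without a member, 22.5% rose and 20.7% fell, at least 2-fold 11.96% and 15.17%. The median absolute log2 change was 0.520 in genes with a member and 0.725 in those without. The shares of genes with a member thus lay close to those over all tested genes. The rule asks for a peak in every list of both groups, so these genes are not a random draw of genes. Changes of at least 2-fold were less frequent among them than in genes without a member, in both directions, and why was not tested.

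Ranks lay in the direction of the gene's change in more members than in the opposite one. Among 792 members in genes that rose at least 2-fold, 25.1% ranked higher in all BE lists and 7.58% lower, in the ranking among members. Among 1362 members in genes that fell at least 2-fold, 6.83% ranked higher and 31.2% lower. Members of genes without a call (5830) were close to the background of 12.2% and 12.7%, at 11% higher and 9.98% lower. Smaller changes lay between, with 17.4% higher and 9.58% lower where the gene rose by less than 2-fold, and 9.06% higher and 11.7% lower where it fell by less than 2-fold. Median rank differences in the same order of rise and fall were 4.28, 0.93, 0.36, -0.42 and -5.55 points.

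Pearson's r between rank difference among members and the log2 change of the gene was 0.314 and Spearman's rho 0.215, over 10717 regions that share libraries and, within a gene, the gene's change. Within the whole list the values were 0.293 and 0.206, and without BE replicate 1 they were 0.304 and 0.219. Within groups the coefficients were negative. A library's deviation from its group's mean rank was set against the deviation of its input level, taken as log2 of CPM + 1. These deviations had r of -0.049 to -0.113 and rho of -0.087 to -0.164 in the 6 libraries. Leaving out BE replicate 1 gave 31.9% higher and 9.97% lower in genes that rose at least 2-fold and 9.25% and 37.4% in those that fell, beside 17.2% and 17.5% over all members. No source used here says whether the caller used the input reads as control, so rank and gene change may share reads.

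Muscle markers moved with this contrast, as given above. In genes that fell at least 2-fold, 34.2% of the 76 members from the striated and smooth muscle lists ranked lower in BE and 9.21% higher. In the other 1286 members of fallen genes the shares were 31.0% and 6.69%. These lists hold 44 and 19 genes of the count table and may miss other muscle genes, and the part of muscle RNA in the result was not tested.

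**Figure D3:**
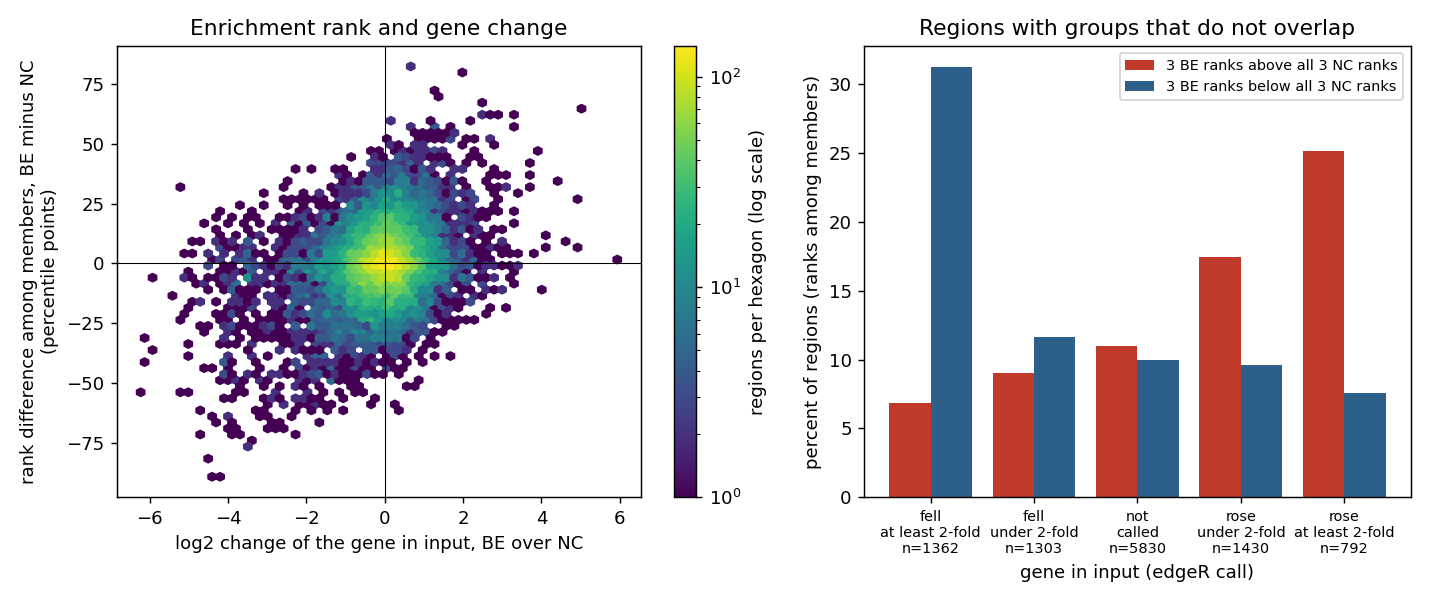
Left, members by log2 change of the gene in input (x axis, BE over NC) and rank difference among members (y axis, percentile points), coloured by regions per hexagon on a log scale. Right, percent of members whose 3 BE ranks lie all above (red) or all below (blue) the 3 NC ranks, by the edgeR call of the gene, with the number of regions; the share below runs from 31.2% in genes that fell at least 2-fold to 7.58% in those that rose.

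Crossing the 2 measures in the whole-list ranking gave 258 members higher in rank in a gene that rose at least 2-fold (32.6% of 792). In genes that fell at least 2-fold, 331 were lower in rank (24.3% of 1362). Opposite directions were found in 155 members that ranked higher while the gene fell (11.4%) and in 29 that ranked lower while it rose (3.66%). Over all members 19.5% ranked higher and 7.68% lower, so both opposite shares lay below these. Among members alone the 2 opposite counts were 93 (6.83%) and 60 (7.58%), beside 12.2% higher and 12.7% lower over all members. With 1 library left out, 5 lists separate more easily than 6, and the first reached 265, 252 and 243 without BE replicate 2, BE replicate 3 and NC replicate 3. The second was 47, 49 and 57 without BE replicates 1, 2 and 3 and 75, 45 and 58 without NC replicates 1, 2 and 3.

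Beyond the genes above, the largest rises of rank in risen genes were in Birc5, the apoptosis inhibitor survivin, Angptl4, an inhibitor of lipoprotein lipase, and Incenp, the scaffold of the chromosomal passenger complex to which survivin also belongs. At the second of its 3 members Birc5 ranked 88.4, 84 and 79.2 in BE and 9.81, 38.3 and 16.4 in NC. The gene rose in the input from 3.05 to 17.2 CPM (log2 change 2.48 ± 0.34 SE, edgeR adjusted p = 0.000286). Incenp ranked 70.7 to 84.8 against 4.45 to 32.8 at the second of its 3 members, in a gene that rose by 1.60 ± 0.20. Angptl4 ranked 83.7 to 93.5 against 8.88 to 48, with uneven input values of 17.8, 7.8 and 4.67 CPM in BE. The gene's call was lost without NC replicate 3, at adjusted p = 0.0504.

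Ranks and gene moved apart in Fndc1, a fibronectin type III domain protein. Its 2412 bp region (chr1:48953847-48956258) ranked 61.1, 49.6 and 63 in BE and 18.1, 5.02 and 17.9 in NC (44.2 ± 8.27 points, limma adjusted p = 0.0286). Leaving out any 1 library ended this rank call, at limma adjusted p of 0.0651 to 0.0809. The gene itself was far less abundant in BE, at 27.7 to 39.7 CPM against 250.0 to 326 (log2 change -3.13 ± 0.16). Magix, a PDZ domain protein, ranked 49.8 to 77.7 against 5.3 to 22.4 while its input reads were 9, 0 and 4 in BE and 80 to 170 in NC.

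In the reverse case, ranks fell below NC in genes that rose. Dusp6, a phosphatase that turns off ERK, ranked 19.6, 24.9 and 20.6 in BE and 72, 54 and 37.8 in NC. Its input level was 34.6 to 57.5 CPM in BE and 13.2 to 26.3 in NC (edgeR adjusted p = 0.00471). The rank difference of -32.9 ± 9.79 points did not pass limma's test (adjusted p = 0.0902). Tars, the threonyl-tRNA synthetase, ranked 1.71 to 32.2 against 44.9 to 53.9, and Rrp9, a protein of the U3 snoRNP of ribosome assembly, 13.5 to 34.2 against 52.2 to 58. Neither passed within the whole list (adjusted p = 0.105 and 0.0738), while among members alone they stood at 0.0494 and 0.0408.

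Among falls of both measures, Pik3ip1, an inhibitor of PI3 kinase, ranked 7.25, 3.3 and 41.6 in BE and 65.6 to 81.6 in NC. Pcsk5, a proprotein convertase, ranked 18.5 to 41.2 against 75.3 to 88. Their genes fell by 2.12 (SE 0.40) and 1.57 (SE 0.20) on the log2 scale.

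Several regions of 1 gene could be followed in the genes with the most members. Trdn, triadin, which anchors calsequestrin to the calcium release channel of muscle, held 19 members with a median width of 48 bp. In 12 of them every BE list ranked below every NC list within the whole list, in none above, and limma called 5 lower. Among members alone 15 lay below. The fifth (chr1:26980740-26980787) ranked 28.5, 27.8 and 30.9 in BE and 82.4, 90.9 and 83.1 in NC, and the eighteenth 34.2, 19.3 and 42.5 against 85.7, 89 and 90.6 (0.0205). The second (chr1:26908277-26908324) ranked 67.4, 60.2 and 64 against 46.4, 70.6 and 70.3, so the groups overlapped there. Trdn fell from 214 ± 17.9 to 14 ± 4.13 CPM (log2 change -3.94 ± 0.22, edgeR adjusted p = 1.61e-06).

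Dst, dystonin, a cytolinker whose epithelial form is part of the hemidesmosome, showed the opposite sign of rank in a gene that fell. Of its 13 members 9 ranked higher in all BE lists within the whole list (5 among members alone) and none lower, while the gene fell from 2564 ± 221 to 1130 ± 134 CPM (log2 change -1.18 ± 0.12). The second region ranked 48.6, 85.7 and 54.8 in BE and 22.1, 10.3 and 17.2 in NC, at a limma adjusted p of 0.0499 within the list and 0.152 among members. A 108 bp region, the twelfth, ranked 64.4, 61.2 and 53.4 in BE and 18.1, 19.7 and 3.67 in NC (limma adjusted p = 0.0282 within the list and 0.0417 among members). The eleventh, 2685 bp wide, ranked 93.8 to 96.1 against 91.6 to 93.3, a difference of 2.57 points.

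Akap9, an anchor of protein kinase A at the Golgi and centrosome, held 16 members, 9 higher within the whole list (4 among members alone), 1 lower in either ranking and 6 with overlapping groups within the whole list, in a gene that fell by 0.92 on the log2 scale (SE 0.11). Its second region ranked 63.9 to 68.7 in BE and 25.5 to 38.8 in NC, its eleventh 51.9 to 63.5 against 63.6 to 75.3. Tnrc18 had 13 members, 8 higher and none lower within the whole list (7 and 1 among members alone), with no call of the gene (log2 change -0.042 ± 0.13, edgeR adjusted p = 0.816). No region of Akap9 or Tnrc18 was called by limma.

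**Figure D4:**
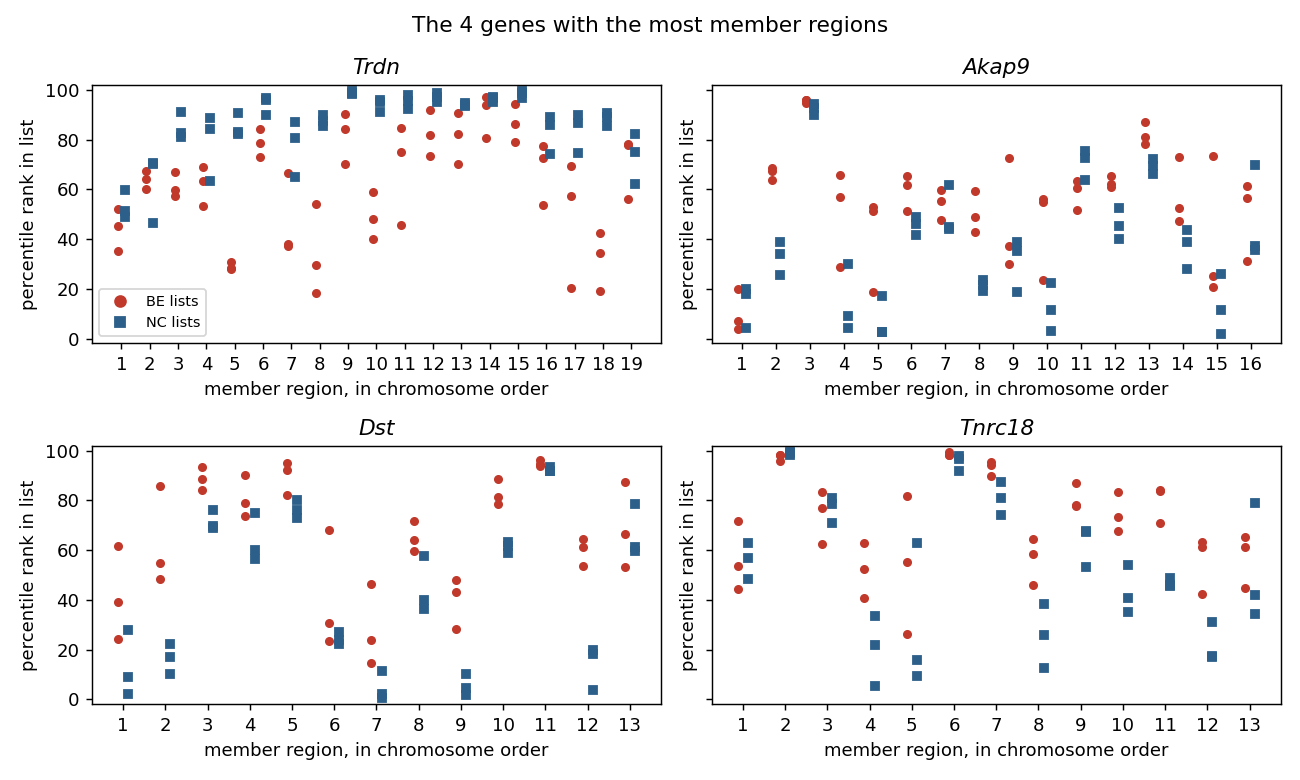
Percentile rank within each list (y axis, 0 to 100) of every member region of the 4 genes with the most members, in chromosome order (x axis); circles are the 3 BE lists and squares the 3 NC lists. Trdn's BE circles lie below the NC squares in 12 of 19 regions, and Dst's lie above in 9 of 13.

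Rank differences varied among the regions of 1 gene, and the part of this that is spread among libraries was not separated. In the 2595 genes with 2 or more members, 25.6% of the variance of rank differences lay between genes, and the median gene's regions were spread over 15.2 points. Of 284 genes with at least 2 members whose groups did not overlap in both rankings, 62 held such members in both directions. No gene had limma calls in both directions in both rankings, so opposite directions within a gene rest on groups that did not overlap. The 3 widest gaps among these 62, chosen after their values were seen, were in Rdx, Rnf126 and Golga4.

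Rdx, radixin, which links actin to the plasma membrane, held 6 members, 3 higher and 1 lower. It ranked 87.4, 83.1 and 70.8 in BE and 38.6, 60.1 and 38.5 in NC at the fourth (chr8:55186473-55186633; limma adjusted p = 0.0662). At the first (chr8:55152377-55152525) the order was reversed, with 60.3, 63.6 and 65.9 in BE and 90.2, 88.8 and 84.8 in NC (-24.7 ± 5.28 points, limma adjusted p = 0.0409). Rnf126, a ubiquitin ligase, ranked 81 to 83.6 against 17.4 to 55.4 at one region (limma adjusted p = 0.0401). At the other it ranked 83.8 to 87.6 against 90.6 to 97.7 (0.0992). Golga4, a golgin, held 8 members, 3 higher and 1 lower. The eighth ranked 74.9 to 77 against 42.2 to 59.4 and the second 28.3 to 69.4 against 71 to 79.6 (limma adjusted p = 0.087 and 0.211).

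Gene lists by role, chosen with earlier results of these data known, place the members in the biology of the tissue. For each, the number of members with separate groups in both rankings stands against the background of 12.2% higher and 7.68% lower over all members, and the median difference among members against 0.051 points. Limma calls within the whole list stand against 2.21% higher and 1.15% lower over all members. Counts of risen and fallen genes stand against 21.8% and 21.8% over all tested genes.

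Of the m6A machinery, 16 of 28 genes in the count table held 43 members. In 10 of these members all BE ranks lay above NC and in 1 below, with a median of 1.13 points. Of 25 genes tested in the input, 6 rose and 2 fell. The reader Ythdf2 ranked 97.9, 97.6 and 96.7 in BE against 83.6, 78.7 and 81.7 in NC at its second region, a difference of 16 points (limma adjusted p = 0.0178), and the gene rose by 0.48 on the log2 scale (edgeR adjusted p = 0.0127). The reader Ythdf1 ranked 88.1 to 94.9 against 68.1 to 76.5 (limma adjusted p = 0.0358, among members 0.0605), and Eif3a, a translation factor subunit that binds m6A, 57.8 to 75.1 against 26.8 to 29.5 (0.0401, among members 0.0739). Zc3h13, a partner of the writer, held 9 members, of which the second ranked 47.8 to 71.6 against 10.1 to 39 (limma adjusted p = 0.0669). The groups of that region overlapped among members alone. Ythdc1, the nuclear reader, held 6, with 56.8 to 64.9 against 24.4 to 47.2 at the third (0.129). The writer Mettl3 had 2 members with overlapping groups.

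Chromatin regulators were the list with the most members, 152 in 43 of 47 genes, with 20 higher and 2 lower and a median of 2.67 points. Kmt2c, a histone H3 lysine methyltransferase, ranked 65.5, 47.7 and 50.9 in BE and 11.4, 22.6 and 10.9 in NC at its second region (limma adjusted p = 0.0405), and the related Kmt2a 51.6 to 60.3 against 9.01 to 24 (0.0353). Both genes fell in the input, by 0.52 (SE 0.12) and 0.54 (SE 0.10), and among members alone neither region passed (adjusted p = 0.0851 and 0.0625). The DNA methyltransferase Dnmt3a, whose input fell by 2.15, stood the other way at 17 to 40.6 against 61.4 to 73.9 (0.0509 within the list and 0.0259 among members).

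In signalling of the Notch, Wnt, Hedgehog and BMP pathways, 39 genes held 83 members, 11 higher and 5 lower and a median of -0.39 points. Limma called 5 of the 83 within the whole list, all higher, beside 2.21% higher and 1.15% lower over all members. Rnf43, a ligase that removes Wnt receptors, ranked 88.2, 87.9 and 87.4 in BE and 50, 27.3 and 26.3 in NC (53.3 ± 8.81 points, limma adjusted p = 0.0237). Axin1, a scaffold of the complex that degrades beta-catenin, had 2 of these calls among its 5 members, one at 55.8, 58.6 and 60.6 against 21.3, 6.91 and 6.5 in a gene without a call. Grem1, a BMP antagonist, ranked 91.7, 96.2 and 94.2 against 59.5, 38.3 and 42.3, and Bmp2 itself 68.4 to 82 against 16.5 to 42.3, with no edgeR call of Bmp2 (adjusted p = 0.0759). Of the 50 genes tested, 15 rose and 13 fell in the input, Rnf43 by 1.14 ± 0.25 and Grem1 by 2.09 ± 0.33. Without BE replicate 1 the rank differences of Rnf43, Axin1 and Grem1 were 53.1, 48.0 and 48.5 points, at adjusted p of 0.0608 to 0.0625.

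Growth factor receptors and their feedback held 48 members, 5 higher and 5 lower (median 3.72 points), including a region of Sos1, the Ras exchange factor, at 68.5 to 82.6 against 32.2 to 54.4, and 1 of Igf1r at 34.2 to 60.2 against 6.19 to 26.3. Transcription factors of epithelia and the immediate early response held 64, 10 higher and 4 lower (median 1.04 points). Among them the epithelial factor Grhl2 ranked 42.1 to 66.5 against 12.3 to 29.6. Zeb2, a repressor of epithelial genes, ranked 14.1 to 56.5 against 0.559 to 7.44, but its groups overlapped among members alone. Klf5 had overlapping groups in both rankings. None of these 5 regions passed limma's test (adjusted p = 0.0607 to 0.183).

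Adhesion genes of desmosome, hemidesmosome and cadherin junctions held 41 members in 19 genes, 9 higher and 2 lower, median 5 points, and 26 of 30 tested genes rose in the input. Dst held 13 of these members, and the other 28 had 4 higher and 2 lower, with a median of 1.71 points. Itga6, the hemidesmosomal integrin, ranked 66.7 to 75.4 against 25.5 to 46.2 at the first of its 3 members (limma adjusted p = 0.0559), and the gene rose by 1.55 ± 0.10. Pkp4, a plakophilin, ranked 53, 53 and 53.9 against 24.9, 9.66 and 21.9 (limma adjusted p = 0.0492, among members 0.0873). P-cadherin, Cdh3, stood below NC at its second region, with 88 to 90.6 against 95.4 to 96.2 (0.0507 within the list and 0.0379 among members), while the gene rose by 2.21 on the log2 scale. Squamous genes held 14 members in 11 of 34 genes, 5 higher and 1 lower (median 6.85 points). The cornified envelope proteins Ppl and Evpl ranked 57.3 to 69.7 against 24.2 to 39.7 and 79.5 to 80.2 against 51.7 to 56.5, with no limma call of rank (both 0.0682) and no edgeR call of the gene. Abca12, a lipid transporter of the epidermal barrier, ranked 24.3 to 36.8 against 4.7 to 16.3 (0.142).

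Cell cycle genes held 23 members in 9 genes, 3 higher and 1 lower (median 5.74 points). All 3 were the Cenpe regions, and 30 of 38 tested genes rose in the input. Mki67, the proliferation antigen, ranked 75, 33 and 45.4 in BE and 23.9, 3.91 and 13.2 in NC, Cenpf 43.4 to 60.8 against 7.87 to 41.5, and neither was separate in both rankings. Inflammatory mediators held 17 members, 2 higher and none lower, with a median of -4.84 points, below that of all members, and 28 of 36 tested genes rose. Rela ranked 33.9 to 52.6 against 12.1 to 23.7, Vcam1 76.1 to 89 against 44.7 to 66.3, neither with a limma call (0.115 and 0.143), and Relb overlapped.

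Matrix genes and proteases held 36 members, 2 higher and 2 lower (median 0.98 points). At the first of its 4 members, Timp2, a metalloproteinase inhibitor, ranked 53.4 to 86.2 against 28.8 to 37.8 (limma adjusted p = 0.0759) in a gene that fell by 1.38 (SE 0.12). Adamts1 and Col6a1 were not separate in both rankings. Leukocyte markers held 12 members with a median of -3.58 points, none of them separate in both rankings, among them regions of Cd163, Cxcr2 and Cd74. The summed CPM of the list was 1133 to 1822 in BE and 726 to 1269 in NC. Sdc1 alone gave 522 to 631 CPM of the BE sums and 264 to 304 of the NC sums. Of the list's 22 tested genes 5 rose and 6 fell in the input, with a median log2 change of -0.086. Columnar, goblet and biliary epithelium markers held 3 members with a median of -4.19 points, none of them separate in both rankings, among them regions of Foxa1 and Slc5a1 with overlapping groups.

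Striated muscle genes held 58 members in 22 of 44 genes, 18 lower and 5 higher, with a median of -8.55 points, and 40 of the 43 tested genes fell. Trdn held 19 of these members and 12 of the lower ones. The other 39 members had 6 lower and 5 higher, with a median of -0.89 points, so the list's median rests on Trdn. Besides Trdn, Neb, the giant ruler of the thin filament, ranked 12, 29.4 and 19.5 in BE and 52.7, 82.6 and 63.9 in NC at the last of its 5 members (limma adjusted p = 0.0409). Its input level was 1450 ± 217 CPM in BE and 25816 ± 4473 in NC. Tnnt3, fast skeletal troponin T, ranked 62.9 to 68.7 against 84.2 to 98.4 (0.0306). Jph1, a junctophilin of the muscle triad, went the other way at 42.2, 30.4 and 58.4 against 2.05, 2.39 and 2.76 (0.0404 within the list, 0.113 among members), though it fell from 117 ± 2.31 to 6.43 ± 1.01 CPM.

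Smooth muscle and vessel wall genes held 32 members, 4 higher and 4 lower (median 0.38 points). Myh11 held 9 of them, and the other 23 had 2 higher and 4 lower, with a median of -3.02 points. Smtn, smoothelin, ranked 71.5 to 83 against 36.4 to 48.7 (limma adjusted p = 0.0435, among members 0.0636). Myh11, smooth muscle myosin, ranked 22.6 to 39.7 against 0.769 to 1.91 (0.062, among members 0.186), and both genes fell. Pdlim7, a PDZ and LIM domain protein, ranked 38.7 to 53.7 against 69.2 to 89.9 (0.0946), with no call of the gene.

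**Figure D5:**
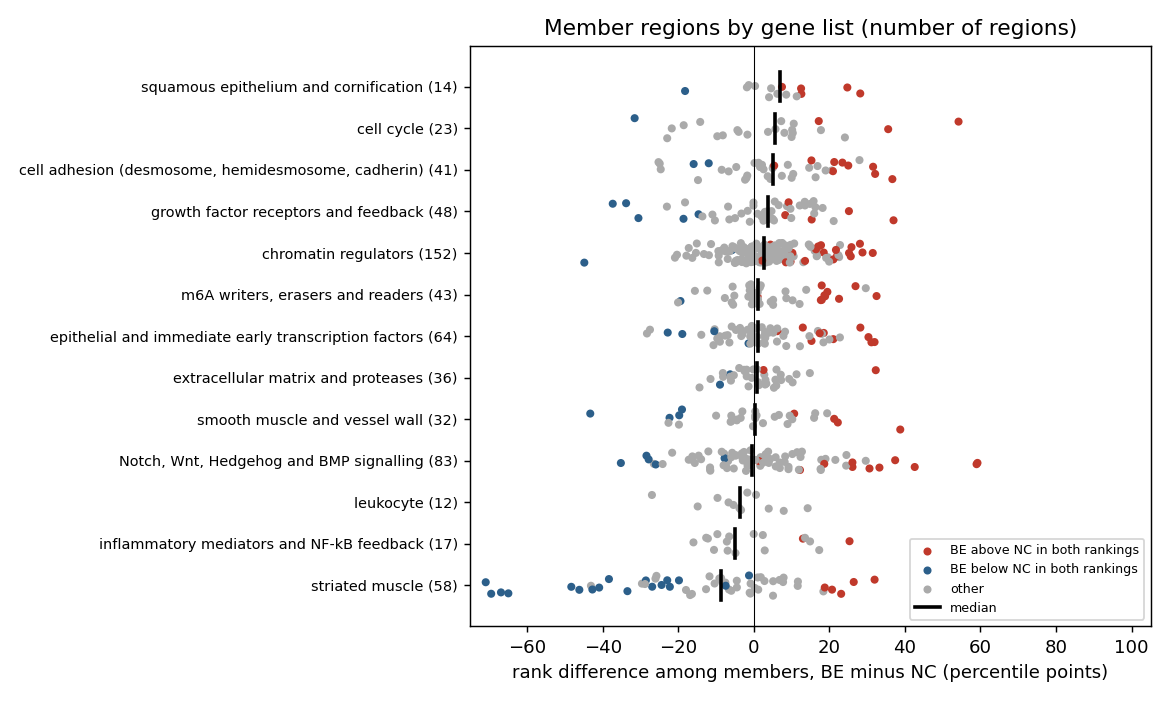
Rank difference among members (x axis, BE minus NC, percentile points) of every member region in each gene list with at least 10 members, with the number of regions in brackets; red and blue points have separate groups in both rankings and black bars are medians. Striated muscle has the lowest median, -8.55 points, which is -0.89 without the 19 regions of Trdn, and squamous epithelium the highest, 6.85.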

How the data were processed

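Gene counts of 6 input libraries and m6A peak lists of 6 IP libraries were used, grouped by the labels. Per the submitters' processing notes, cutadapt 1.9.3 and HISAT2 2.0.4 were used; no source used here names the genome build, the counting tool, the peak caller's version or its control. The authors deposited whole-number counts per gene, and another 6 normalized per-sample columns were not used. Per the file headers, each peak has a position, a -10 log10 p score (a scaled -log10 p) and a fold enrichment ratio; 18.1% of members carry scores at the list's top in every list, so scores were not used to rank. The lists were taken to count from 0, and coordinates are printed from 1.

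Peaks of the 6 lists were merged at 1 bp overlap. The best fold enrichment per region and list became a percentile rank, within the list or among members, and was tested with limma 3.58.1 (trend, two-sided) over 11152 members. Counts were tested with edgeR 4.0.16 (R 4.3.3; filterByExpr, TMM, robust quasi-likelihood), with 13761 of 17450 genes tested, 6418 of 6555 member genes matched (120 by Ensembl identifier) and 10717 members in tested genes. P-values were adjusted by Benjamini-Hochberg, threshold 0.05. Both fits were tested on simulated data. DESeq2 1.42.0, other scalings, a replicate block, other ranks and left-out libraries were alternatives. The members, gene lists and rules were chosen with earlier results of these data known. Regions named are the 8 largest rises and falls of rank with groups that did not overlap in both rankings, 3 more per combination of rank and gene direction, the 6 with the highest lowest rank, up to 3 per gene list and the 4 genes with most members; Ythdf1, Ythdf2, Dnmt3a, Cdh3, Tnnt3 and Bmp2, which passed limma's test in at least one ranking, were added after their values were seen. Some regions that the rule names are not reported here. Region sequences and positions along transcripts were not analysed here. Precision is limited by n = 3 libraries per group.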

Additional observations from a re-analysis of the deposited data

How the results depend on the processing

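The number of members stayed between 8252 and 11796 under other overlaps, peak thresholds and left-out lists, and counts of changed genes stayed within 1.5 times. Rank calls depended on the setting. Regions called higher by limma numbered 246, but 145 among members alone and 0 to 121 with 1 library left out. Regions called lower numbered 128, but 206 among members alone, 337 on median-centred log2 fold enrichment and 0 to 64 with 1 library left out. Replicate numbers do not pair these samples (correlations of same-numbered deviations -0.117 to 0.045), and the replicate block left 126 higher and 94 lower calls, and 2540 and 2683 changed genes. Members ranked higher in fallen genes numbered 93 among members alone and 203 to 265 with 1 library left out, and members ranked lower in risen genes 60 and 45 to 75. Separate regions in both rankings ran from 1857 to 2007 higher and from 1168 to 1363 lower with 1 library left out (alternatives added after the data were seen), since fewer lists separate more easily. For other moved values the cause was not tested. Of the 78 regions and 75 genes for which alternatives were run, none reversed its sign while called. Over these, rank values kept their side of the threshold 758 times, lost it 170 times (37 of them without NC replicate 3) and gained it 8 times. Input changes did so 720, 21 and 9 times. Precision is limited by 3 libraries per group and unknown IP depth.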
